A study of Saccharomyces cerevisiae with 18 samples.

Results

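The 33 genes described here encode 32 subunits of the budding yeast proteasome and RPN4, the transcription factor that drives their expression. They were taken by systematic name from a table of 6606 open reading frames (ORFs). The 20S core particle gave 14 genes, 7 of the alpha ring and 7 of the beta ring. The 19S regulatory particle gave 18 genes, 10 of its base and 8 of its lid. All 33 rows were present, and each symbol paired with its RefSeq name. SEM1, a further small lid protein, is counted here with the assembly and associated factors.

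The proteasome degrades proteins that carry ubiquitin chains. The beta ring subunits PRE3, PUP1 and PRE2 hold the proteolytic sites inside the core, and the alpha ring gates the entrance to it. The base unfolds substrates with a ring of ATPases (RPT genes) and captures ubiquitin through RPN10, RPN13 and RPN1, while the lid subunit RPN11 cuts the ubiquitin chain off. Rpn4 binds a short promoter motif called PACE (proteasome-associated control element), and Rpn4 protein is itself a rapidly destroyed substrate of the proteasome.

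Poly-A RNA came from Saccharomyces cerevisiae in log phase in YPD, a rich glucose medium, at 30 °C without G418. The groups were a wild-type with 6 libraries and 4 heterozygous diploids with 3 libraries each. The diploids were heterozygous at 1 chromosome I gene each: SEO1 (yal067c), which resembles permeases; GIP4 (yal031c), whose protein binds the phosphatase Glc7; FUN26 (yal022c), which moves nucleosides across the vacuole membrane; or FUN14 (yal008w), which encodes a protein of mitochondria. Every label names BY4741, a haploid of mating type a, as the background, the series record calls the wild-type diploid, and the deposited wild-type columns are named for the diploid BY4743. Neither separate cultures nor clones are stated, so the error behind each p-value is that of these libraries and may be technical.

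The counts of wild-type replicates 1 and 2 agreed within sampling noise, so the pair was taken as 1 sample, leaving 5 wild-type and 12 heterozygote libraries. Total counts per library ran from 52293.5 to 132618. Mating genes set the wild-type apart: 6 a-specific genes summed to between 955 and 1617 CPM (counts scaled to library size) in wild-type, and to between 16.0 and 174 in the heterozygotes. The sum of 11 haploid-specific genes was 1144 to 1650 CPM against 52.2 to 261, and 4 alpha-specific genes summed to 33.3 to 174 against 0 to 118. A diploid of both mating types keeps a-specific and haploid-specific genes off. Heterozygosity, mating type and any difference in ploidy therefore cannot be told apart in any comparison with this wild-type. GIP4, FUN26 and FUN14 had mean levels of 9.79 ± 9.02, 136 ± 65.0 and 164 ± 28.7 CPM in their own heterozygotes (SD, n = 3) and 57.0 ± 22.7, 269 ± 117 and 309 ± 51.2 in wild-type (n = 5). GIP4 and FUN14 were lower in each library of their own heterozygote than in any other library. FUN26 was not: its own heterozygote had 88.7, 210 and 109 CPM, beside 114 to 405 in wild-type and 138 in GIP4 replicate 1. Its level therefore does not settle that label. SEO1 was at 0 counts in all 12 heterozygote libraries, which leaves its label unchecked.

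The promoter windows were searched for PACE, a motif already tied to proteasome genes, so its share among them is a description and not a test. An exact PACE match, GGTGGCAAA on either strand, lay in the window from 250 bases before to 50 bases after the start codon in 27 of the 33 genes (81.8%, 95% Clopper-Pearson interval 64.5 to 93.0). The same letters lay in 72 of 6007 windows of annotated nuclear coding genes (1.20%), the 33 included. The match was present for 12 of 14 core genes, 8 of 10 base genes and 7 of 8 lid genes. Sequences here are RefSeq R64, written 5′ to 3′ on the strand of the gene, with the motif in capitals. The following sites are shown because their genes carry the main expression results, and RPT6 and PUP3 because they mark the nearest and farthest sites:
RPT6 (YGL048C), chrVII:411352-411380, minus strand: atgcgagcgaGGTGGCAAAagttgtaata
PUP2 (YGR253C), chrVII:999226-999254, minus strand: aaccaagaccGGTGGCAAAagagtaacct
RPN9 (YDR427W), chrIV:1322086-1322114, plus strand: gctttcatccGGTGGCAAAagtaagaaca
RPT4 (YOR259C), chrXV:813802-813830, minus strand: aatagtggaaTTTGCCACCgaagggaaag
RPN11 (YFR004W), chrVI:153259-153287, plus strand: ggacctccaaGGTGGCAAAttcacaagaa
PRE10 (YOR362C), chrXV:1018856-1018884, minus strand: cctctaaatcGGTGGCAAAaataagaaag
RPN7 (YPR108W), chrXVI:742290-742318, plus strand: ataagttaagTTTGCCACCcattgaggat
PRE9 (YGR135W), chrVII:761223-761251, plus strand: ttaccctgcaGGTGGCAAAaaatttatag
PUP3 (YER094C), chrV:349511-349539, minus strand: tggcactgccGGTGGCAAAaaagtgcaaa

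The 9 letters began from 84 bases (RPT6) to 183 bases (PUP3) before the start codon, with a median of 120. They read on the strand of the gene in 19 genes and on the other strand in 8, as in RPT4 and RPN7 above. Of the 6 genes without the full motif, RPN10 and RPN13, both ubiquitin receptors of the base, held its first 6 letters, GGTGGC. Those letters occurred in 29 of the 33 windows (87.9%) and in 6.93% of all windows. The RPN10 and RPN13 matches are shown with those 6 letters in capitals, for comparison with the full sites:
RPN10 (YHR200W), chrVIII:498968-498996, plus strand: caggcgggttttcGCCACCggaatttaca
RPN13 (YLR421C), chrXII:965656-965684, minus strand: ttattcgcgaGGTGGCgaaagctttgcta

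PRE5, PUP1, RPN8 and RPN4 held neither form in this window. PRE5, PUP1 and RPN8 did hold AGTGGCAAA, which differs from PACE only in the first letter. Sites with such a change were not searched for across all windows. Among genes that work beside the proteasome, 1 of 16 assembly and associated factors had the full motif, ECM29, which tethers core and regulatory particle. So did 3 of 24 ubiquitin pathway genes: UBA1, the ubiquitin-activating enzyme, UBI4, the polyubiquitin gene, and CDC48, the segregase that extracts ubiquitylated proteins.

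**Figure D1:**
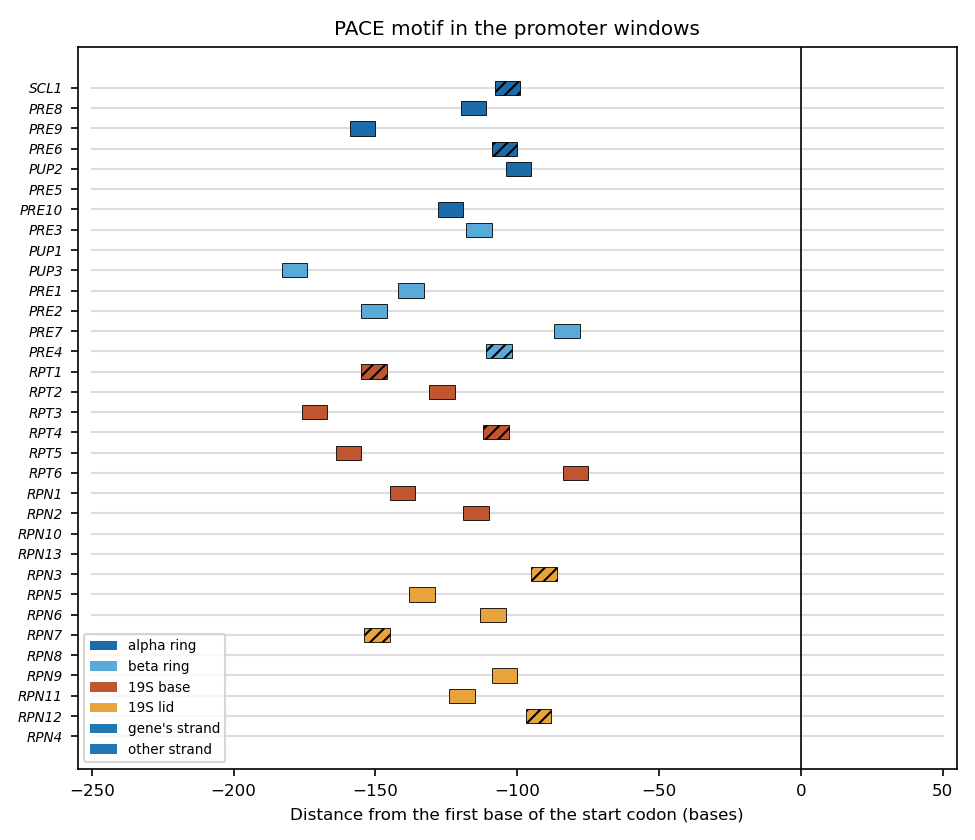
Position of the PACE motif in the promoter windows of the 33 genes, as distance in bases from the first base of the start codon. Each block is 1 match, coloured by subcomplex and hatched where it reads on the strand opposite the gene; 27 genes have a block, starting 84 to 183 bases before the start codon, and 6 rows are empty.

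RPN4 has regulatory sites of another kind. Within 1000 bases before its start codon lay 1 match to the Yap1 element TTACTAA, at 374 bases, and 2 matches to a heat shock element TTCNNGAANNTTC, at 348 and 21 bases. Of all windows of that length, 21.1% held the Yap1 letters and 2.68% the heat shock letters on either strand, and the 2 motifs do not share positions in RPN4. The Pdr1 and Pdr3 element TCCGCGGA, in 1.03% of such windows, had no exact match there. Yap1 and the heat shock factor are known regulators of RPN4, and their sites are shown because RPN4 itself lacked PACE:
RPN4 Yap1 element, chrIV:417066-417092, minus strand: gtgatcgctaTTACTAAtagccgttta
RPN4 distal heat shock element, chrIV:417034-417066, minus strand: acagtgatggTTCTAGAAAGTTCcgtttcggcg
RPN4 proximal heat shock element, chrIV:416707-416739, minus strand: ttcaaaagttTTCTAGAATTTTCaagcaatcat

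RPN4 (YDL020C) was a weakly counted gene, at 1 to 11 counts per library. RPN4 stood at 15.0, 16.3, 33.3, 89.6 and 49.2 CPM in wild-type, 47.4, 48.0 and 53.2 in the SEO1 heterozygote, 26.6, 11.6 and 122 in the GIP4 heterozygote, 9.86, 38.2 and 217 in the FUN26 heterozygote and 63.7, 164 and 129 in the FUN14 heterozygote. Wild-type averaged 40.7 ± 30.7 CPM (SD, n = 5), and the SEO1 heterozygote was tight at 49.5 ± 3.18 (n = 3). The lowest and the highest of the 17 libraries both belonged to the FUN26 heterozygote, and no heterozygote stood clear of the wild-type range. By edgeR's quasi-likelihood test the mean of the heterozygotes exceeded wild-type by 0.62 ± 0.61 on the log2 scale (SE, adjusted p = 0.829). The FUN14 heterozygote had the largest difference from wild-type, 1.42 ± 0.75 (adjusted p = 0.355), and it also missed the threshold. In bulk RNA, fewer cells expressing a gene and less RNA per cell cannot be told apart.

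The subunit genes differed in how their levels moved with RPN4 across libraries. Over the 17 libraries, Pearson's r of log2 CPM with RPN4 ran from −0.70 for PRE10 to 0.71 for RPT6, with a median of 0.17 over 32 subunits. It was positive for 18 of the 27 genes with the exact PACE match and for 2 of the 5 subunits without it. The share of all tested ORFs with a positive r was not computed, so these counts have no background to be read against. These values describe libraries that share depth and composition, and RPN4's low counts make them imprecise. RPN4 was highest in FUN26 replicate 3, at 217 CPM. So were RPT6, RPT4, RPT1, RPN12 and RPT5, whose r was 0.71, 0.59, 0.45, 0.43 and 0.42. PRE3 and RPN11 also peaked there, with r of 0.16 and 0.15, while PRE1, with r = 0.58, peaked in wild-type replicate 5. The part of that FUN26 library in these correlations was not tested.

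Each value covers the last 200 bases of an ORF, so levels can be compared between genes per length. The subunits did not have equal RNA levels in wild-type, although the assembled particle holds them in fixed proportion. Core subunits had a median wild-type mean of 231 CPM, base subunits 181 and lid subunits 73.6. These medians exceed the wild-type mean of 79.7%, 75.4% and 57.2% of all ORFs.

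Within the core, PUP3, a beta ring subunit without catalytic activity, had the highest wild-type mean, 543 ± 338 CPM, and PRE3, which carries the caspase-like site, the lowest, 104 ± 55.7 CPM. The other catalytic subunits, PUP1 (trypsin-like) and PRE2 (chymotrypsin-like), averaged 188 ± 69.7 and 154 ± 60.3 CPM. PRE3 stood at 105, 65.3, 44.4, 189 and 115 CPM in wild-type, 130.4, 159.9 and 167 in the SEO1 heterozygote, 151, 139 and 69.6 in the GIP4 heterozygote, 148, 85.9 and 261 in the FUN26 heterozygote and 42.5, 134 and 64.7 in the FUN14 heterozygote. The groups overlapped throughout, and FUN26 heterozygote replicate 3 was the highest. In the alpha ring, means ran from 112 ± 53.8 CPM for PRE9, the one subunit of the core that yeast can live without, to 504 ± 137 for PRE8.

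The base spread most, over a 30.3-fold range of wild-type means. RPN10, the soluble and particle-bound ubiquitin receptor, was the most abundant of the 33 transcripts at 1404 ± 257 CPM. RPN10 stood at 1216, 1715, 1378, 1104 and 1609 CPM in wild-type, 1215, 1935 and 1003 in the SEO1 heterozygote, 1003, 1301 and 1409 in the GIP4 heterozygote, 1020.2, 1169 and 1609 in the FUN26 heterozygote and 1232, 1550.0 and 1275 in the FUN14 heterozygote. All 17 libraries lay within a 1.93-fold range, and no group stood apart. RPN10 counts of 74 to 132 neared the ceiling of 201 in the table, so its lead over the other subunits and its range between libraries may both be understated.

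The 6 ATPases of the base were far lower, from RPT2 at 251 ± 51.3 CPM to RPT6 at 46.4 ± 22.7. RPT6 stood at 45.1, 32.7, 22.2, 49.8 and 82.1 CPM in wild-type, 47.4, 63.95 and 114 in the SEO1 heterozygote, 53.3, 58.1 and 69.6 in the GIP4 heterozygote, 19.7, 47.7 and 152 in the FUN26 heterozygote and 42.5, 89.4 and 77.6 in the FUN14 heterozygote. RPT6 had 2 to 15 counts per library and did not pass the filter on low counts. The scaffold subunits RPN1 and RPN2 averaged 389 ± 111 and 167 ± 72.1 CPM, and RPN13 303 ± 49.5.

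In the lid, the deubiquitinase RPN11 and its partner RPN8 had the highest wild-type means, 245 ± 82.2 and 238 ± 57.2 CPM. The 6 other lid subunits ran from 149.7 ± 67.7 CPM for RPN6, a clamp between lid and core, down to 53.9 ± 28.3 for RPN3. RPN3 stood at 40.1, 98.0, 22.2, 59.7 and 49.2 CPM in wild-type, 23.7, 63.95 and 110.1 in the SEO1 heterozygote, 8.88, 34.9 and 34.8 in the GIP4 heterozygote, 104, 47.7 and 304 in the FUN26 heterozygote and 31.9, 59.6 and 25.9 in the FUN14 heterozygote. RPN3 had 1 to 14.5 counts per library and was the second member left out by the filter, so 31 of the 33 genes were tested.

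**Figure D2:**
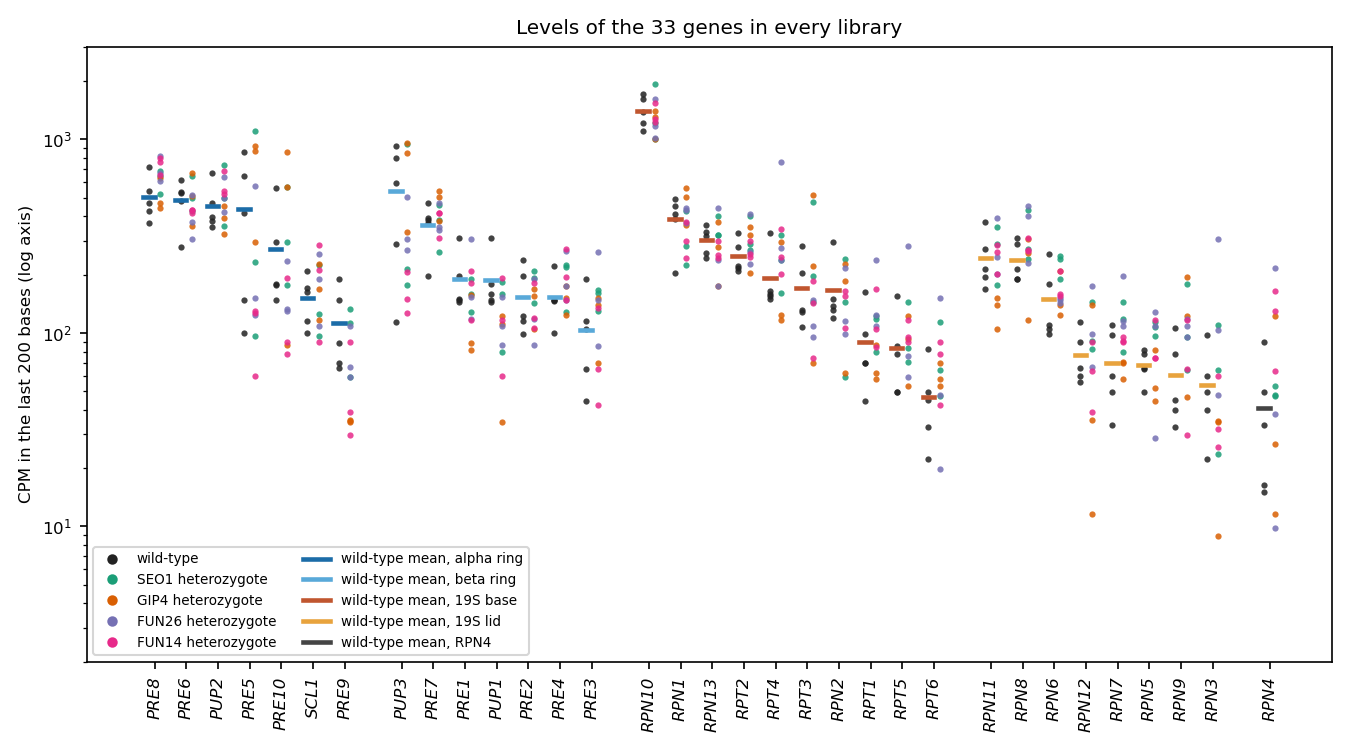
CPM of each gene in each of the 17 libraries on a log axis, grouped by subcomplex and ordered by wild-type mean. Points on the left of each gene are wild-type, points on the right the heterozygotes by colour, and bars are wild-type means; RPN10 sits above 1000 in every library and RPN4 spreads over a 22.1-fold range.

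The first comparison asked whether the heterozygotes together differed from wild-type. No proteasome gene passed an adjusted p of 0.05 by edgeR's quasi-likelihood test, against 0.385% of the 2856 tested ORFs. At an unadjusted p under 0.05 there were 2 of 31, both lower in the heterozygotes, against 6.48% of all ORFs. DESeq2 also called none and had 1 at that unadjusted level. The median log2 fold change of the 31 genes was 0.13 against −0.05 for all tested ORFs, with 18 values above 0 and 13 below (44.2% of ORFs were above). Standard errors ran from 0.17 to 0.61 on the log2 scale, so a shift of a given size was harder to detect in some subunits than in others.

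PRE9 and PUP1 had the smallest p. PRE9 stood at 70.2, 147, 88.9, 189 and 65.7 CPM in wild-type, 59.3, 112 and 133 in the SEO1 heterozygote, 35.5, 34.9 and 34.8 in the GIP4 heterozygote, 59.1, 66.8 and 109 in the FUN26 heterozygote and 90.2, 29.8 and 38.8 in the FUN14 heterozygote. The 3 GIP4 libraries lay below every wild-type library, on 4, 3 and 2 counts, while the other groups overlapped wild-type. Over all heterozygotes PRE9 differed by −0.85 ± 0.35 (log2 fold change ± SE, edgeR's adjusted p = 0.666). PUP1 stood at 178, 310.4, 144, 159 and 148 CPM in wild-type, 184, 79.9 and 159.5 in the SEO1 heterozygote, 111, 122 and 34.8 in the GIP4 heterozygote, 108, 153 and 87.0 in the FUN26 heterozygote and 191, 59.6 and 116 in the FUN14 heterozygote. Wild-type replicate 3 was the highest for this trypsin-like subunit, and the GIP4 libraries again lay below all 5 wild-type libraries. PUP1 differed by −0.65 ± 0.31 (adjusted p = 0.719), and by −0.40 without wild-type replicate 3. RPN9, a lid scaffold subunit, had the largest positive value, 0.85 ± 0.42.

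In the SEO1 heterozygote all 7 tested lid genes had log2 fold changes above 0 with a median of 0.61, beside 6 of 9 base genes, 9 of 14 core genes and 50.5% of all ORFs. Against the same wild-type libraries 6 of 7 lid genes were above 0 in FUN26 (median 0.48, 45.1% of all ORFs), 6 of 7 in FUN14 (median 0.25, 47.9% of all ORFs) and 2 of 7 in GIP4 (median −0.08, 53% of all ORFs). In SEO1 the medians over all 31 genes and over all tested ORFs were 0.23 and 0.01, and without wild-type replicate 3 the former was 0.39. This and the next 3 comparisons share the same wild-type libraries. No gene passed the adjusted threshold (0.14% of all ORFs did), none passed an unadjusted p of 0.05 (3.92% of all ORFs did), and DESeq2 gave 0 at both levels. RPN9 stood at 45.1, 106, 77.8, 39.8 and 32.8 CPM in wild-type, 94.8, 63.95 and 179 in the SEO1 heterozygote, 195, 46.5 and 122 in the GIP4 heterozygote, 118, 95.5 and 109 in the FUN26 heterozygote and 117, 29.8 and 64.7 in the FUN14 heterozygote. Wild-type and the SEO1 libraries overlapped, since wild-type replicate 3 exceeded 2 of them. The difference was 1.05 ± 0.52 (adjusted p = 0.994 by edgeR), and 0.48 without SEO1 replicate 3. That of RPN7 was 0.73 ± 0.41 (adjusted p = 0.994). It was 0.14 over the libraries numbered 1 to 3 alone, with wild-type replicates 1 and 2 kept separate. RPN5 stood at 65.2, 81.7, 77.8, 49.8 and 65.7 CPM in wild-type, 107, 95.9 and 114 in the SEO1 heterozygote, 44.4, 81.3 and 52.2 in the GIP4 heterozygote, 128, 28.6 and 109 in the FUN26 heterozygote and 74.3, 74.5 and 116 in the FUN14 heterozygote. RPN5, a lid subunit, was the only 1 of the 33 genes whose SEO1 libraries all exceeded wild-type, as did 1.82% of tested ORFs.

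In the GIP4 heterozygote 3 genes lay below every wild-type library, PRE9, PUP1 and RPN11, as did 2.49% of tested ORFs, and none lay above (1.47%). No gene passed the adjusted threshold (0.28% of ORFs did), and 4 passed an unadjusted p of 0.05 (4.83% of ORFs did), RPN9 higher and the same 3 lower. DESeq2 called none and had 3 at the unadjusted level. PRE9 differed by −1.64 ± 0.54 (adjusted p = 0.711) and RPN11 by −0.85 ± 0.36 (adjusted p = 0.921). RPN11 stood at 196, 376, 272, 169 and 213 CPM in wild-type, 178, 352 and 289 in the SEO1 heterozygote, 151, 139 and 104 in the GIP4 heterozygote, 246, 200.5 and 391 in the FUN26 heterozygote and 202, 261 and 285 in the FUN14 heterozygote. The GIP4 libraries were the 3 lowest of all 17 for this deubiquitinase, and the other groups overlapped.

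In the FUN26 heterozygote the genes with the smallest p were RPT4 and RPN7 of the 19S particle. The largest negative value was that of PRE10 in the core, −0.69. No gene passed the adjusted threshold (0.21% of ORFs did), and 2 passed an unadjusted p of 0.05 (4.34% of ORFs did), both higher. DESeq2 called none and had 1 at the unadjusted level. RPT4 stood at 150.4, 327, 156, 159 and 164 CPM in wild-type, 237, 159.9 and 319 in the SEO1 heterozygote, 124, 116 and 296 in the GIP4 heterozygote, 276, 239 and 761 in the FUN26 heterozygote and 202, 343 and 246 in the FUN14 heterozygote. FUN26 replicate 3 lay far above the other 16 libraries, and the other FUN26 libraries fell within the wild-type range. RPT4, an ATPase of the base, differed by 1.11 ± 0.42 (adjusted p = 0.980), and by 0.45 without that library. RPN7 stood at 110.3, 98.0, 33.3, 59.7 and 49.2 CPM in wild-type, 119, 79.9 and 144 in the SEO1 heterozygote, 71.0, 58.1 and 69.6 in the GIP4 heterozygote, 108, 115 and 196 in the FUN26 heterozygote and 95.6, 89.4 and 90.6 in the FUN14 heterozygote. RPN7, a lid scaffold subunit, differed by 0.92 ± 0.42 (adjusted p = 0.980), with the lowest FUN26 library just under the highest wild-type one. It differed by 0.36 over the libraries numbered 1 to 3 alone, with wild-type replicates 1 and 2 kept separate. No gene of the 33 had FUN26 libraries clear of wild-type in either direction (2% of ORFs above and 1.26% below).

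The FUN14 heterozygote had the largest single values, and they were in the core. No gene passed the adjusted threshold (0.315% of ORFs did), and 4 passed an unadjusted p of 0.05 (16.7% of ORFs did). These were PUP3, PRE5 and PRE9, lower, and PRE8, higher by 0.56 ± 0.24. DESeq2 called none of the 31 genes, beside 48 of all 2856 ORFs, and had 3 of the 31 at the unadjusted level. PUP3 stood at 797, 114, 289, 597 and 919 CPM in wild-type, 942, 176 and 213 in the SEO1 heterozygote, 954, 854 and 331 in the GIP4 heterozygote, 503, 267 and 304 in the FUN26 heterozygote and 127, 149 and 207 in the FUN14 heterozygote. The FUN14 libraries were all low, but wild-type replicate 3 was lower than any of them. PUP3 differed by −1.76 ± 0.63 (adjusted p = 0.187), and without wild-type replicate 3 by −1.97 (adjusted p = 0.0438). PUP3 was then 1 called gene of 30 tested, a share of 3.33% beside 6.24% of all ORFs. PRE5 stood at 865, 147, 99.98, 418 and 648 CPM in wild-type, 1103, 95.9 and 232 in the SEO1 heterozygote, 923, 871 and 296 in the GIP4 heterozygote, 577, 124 and 152 in the FUN26 heterozygote and 127, 59.6 and 129 in the FUN14 heterozygote. PRE5 (YMR314W), an alpha ring subunit, differed by −2.02 ± 0.82 (adjusted p = 0.236), and wild-type replicates 3 and 4 lay in or near the FUN14 range. None of the 33 genes had FUN14 libraries clear of wild-type (4.9% of ORFs above and 3.89% below).

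**Figure D3:**
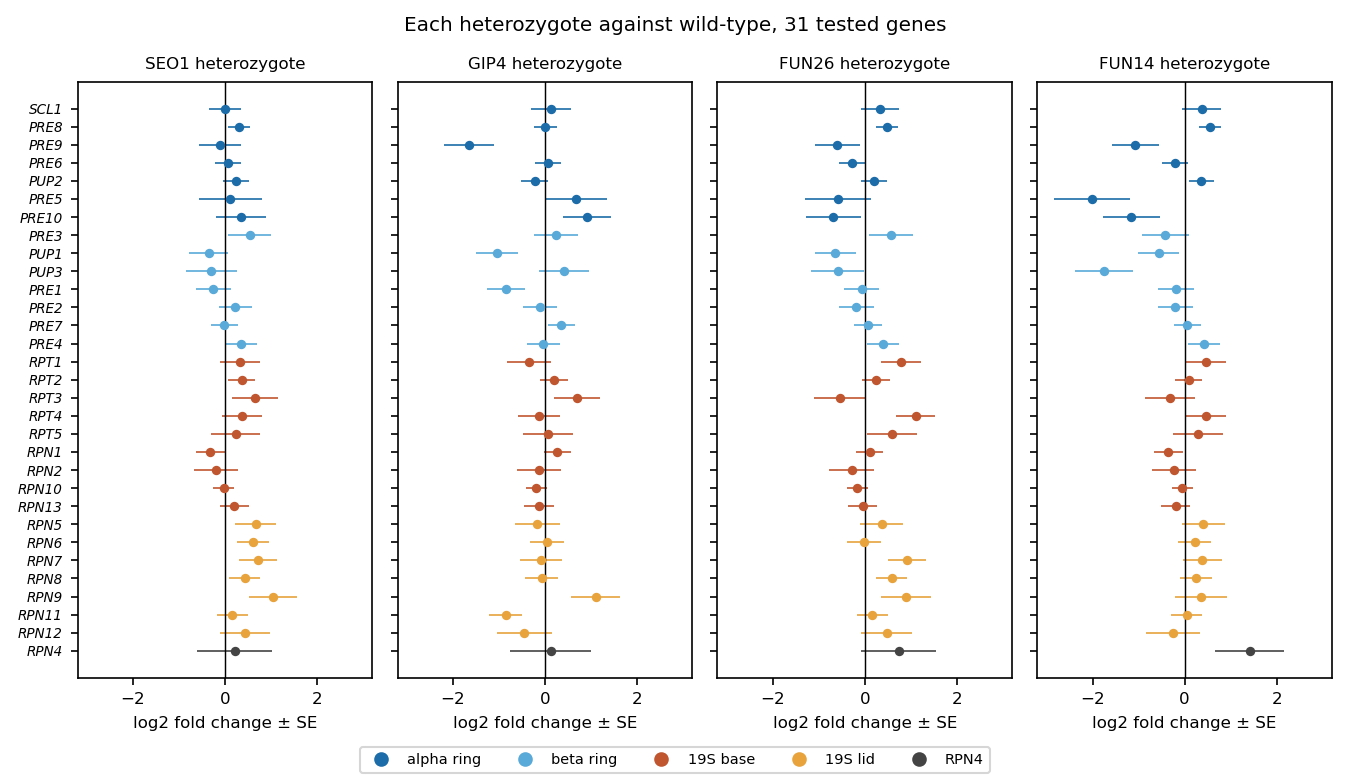
Log2 fold change with its standard error for the 31 tested genes in each heterozygote against wild-type, coloured by subcomplex. Lid genes lie right of 0 in the SEO1 panel, and PUP3 and PRE5 lie farthest left in the FUN14 panel; no value passed the adjusted threshold.

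The heterozygotes were also compared with each other, which leaves out the wild-type and its mating type. By edgeR no gene passed the adjusted threshold in any of these comparisons, and no ORF of the 2856 did (0%). DESeq2 called 15 of these ORFs for FUN14 against the other heterozygotes and 2 for any difference among the 4 heterozygotes. None of them was among the 31 genes. At an unadjusted p under 0.05 an F test across the 4 heterozygotes had 3 of 31 genes (10% of ORFs), PRE10, PUP3 and PRE5. DESeq2 called none and had the same number. Adjusted p was 0.463, 0.467 and 0.476 for these 3, and without SEO1 replicate 1 both PRE5 and PUP3 passed the threshold, 6.06% of the 33 genes beside 7.02% of all ORFs.

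PRE10, the alpha ring subunit with the smallest p in the F test, was highest in part of the GIP4 heterozygote. PRE10 stood at 561, 294, 178, 179 and 148 CPM in wild-type, 569, 176 and 296 in the SEO1 heterozygote, 861, 569 and 87.0 in the GIP4 heterozygote, 237, 134 and 130.5 in the FUN26 heterozygote and 191, 89.4 and 77.6 in the FUN14 heterozygote. GIP4 replicates 1 and 2 were high and replicate 3 was among the lowest of all libraries, and SEO1 replicate 1 reached the level of the second GIP4 library. Against the mean of the other heterozygotes PRE10 differed by 1.42 ± 0.47 in GIP4 (adjusted p = 0.200), PUP3 by 1.29 ± 0.48 (adjusted p = 0.209) and PRE5 by 1.51 ± 0.60 (adjusted p = 0.221). RPN11 had −0.97 ± 0.33 (adjusted p = 0.201). Without SEO1 replicate 1 all 4 of these genes passed the adjusted threshold, PRE10 at 1.57 (adjusted p = 0.0224) and RPN11 at −1.08 (adjusted p = 0.0420), and so did 12.6% of all ORFs, close to the 12.1% of the 33 genes. Without GIP4 replicate 1 the PRE10 difference was 0.76. In all, 4 genes had an unadjusted p under 0.05 in this comparison, against 18.3% of ORFs, and DESeq2 had 4. RPN7 and RPN11 were the genes whose GIP4 libraries all lay below every other heterozygote library, as did 1.58% of ORFs.

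Against the other heterozygotes FUN14 had 3 genes at an unadjusted p under 0.05 (13.4% of ORFs), all lower, and DESeq2 had 3. PRE5 differed by −2.09 ± 0.78, PUP3 by −1.60 ± 0.60 (both adjusted p = 0.288) and PRE10 by −1.35 ± 0.58 (adjusted p = 0.332). SEO1 had 1 such gene (2.07% of ORFs), PRE9, by 0.99 ± 0.43 (adjusted p = 0.998), and by 0.66 without SEO1 replicate 3. FUN26 had 1 (1.37% of ORFs), RPT4, by 0.87 ± 0.38 (adjusted p = 0.998), and by 0.21 without FUN26 replicate 3. DESeq2 had 0 and 1. The next smallest p were those of RPN6 in SEO1, 0.52 ± 0.31, and RPT3 in FUN26, −0.88 ± 0.52 (−0.56 without GIP4 replicate 1). RPN6 stood at 105, 179.7, 256, 109 and 98.5 CPM in wild-type, 189.7, 239.8 and 251 in the SEO1 heterozygote, 124, 139 and 209 in the GIP4 heterozygote, 148, 143 and 152 in the FUN26 heterozygote and 159, 209 and 155 in the FUN14 heterozygote. The SEO1 libraries of RPN6 lay within the wild-type range. RPT3 stood at 281, 131, 128, 204 and 107 CPM in wild-type, 474, 144 and 198 in the SEO1 heterozygote, 515, 221 and 69.6 in the GIP4 heterozygote, 148, 95.5 and 109 in the FUN26 heterozygote and 186, 74.5 and 142 in the FUN14 heterozygote. RPT3, an ATPase, was high in SEO1 replicate 1 and GIP4 replicate 1 and had no FUN26 library clear of the others.

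PRE5, PUP3 and PRE10 varied widely between libraries of 1 group. Their SDs of log2 CPM over the 17 libraries were 1.25, 1.00 and 0.94, larger than those of 98.1%, 92.1% and 89.3% of tested ORFs. They followed the leading axis of the whole data set, a first principal component that held 44.8% of the variance of log2 CPM. Pearson's r with its score was −0.94 for PUP3, −0.84 for PRE5 and −0.55 for PRE10 over 17 libraries. The highest PUP3 and PRE5 values fell in libraries of wild-type, SEO1 and GIP4 alike, at the low end of that axis.

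Other subunits ran the opposite way along the same axis. PUP2, an alpha ring neighbour of PRE5 in the assembled core, had r = 0.82 and RPN11 r = 0.74. PUP2 stood at 396, 669.8, 467, 353 and 378 CPM in wild-type, 356, 496 and 733 in the SEO1 heterozygote, 391, 325 and 452 in the GIP4 heterozygote, 641, 420.1 and 500.1 in the FUN26 heterozygote and 520.2, 686 and 544 in the FUN14 heterozygote. PUP2 moved over a 2.25-fold range, and PRE5 over an 18.5-fold range. Of the 31 genes 7 had r below −0.5 and 9 above 0.5, shares of 22.6% and 29.0% beside 28.3% and 21.8% of all tested ORFs. The FUN14 libraries all had positive scores, 13.6 to 28.8, and the GIP4 libraries negative ones, −32.2 to −3.72, with wild-type from −23.7 to 38.7. Replicate 1 had the lowest score in each of the 5 groups and also the highest PRE10 level in each, with wild-type replicates 1 and 2 as 1 library. The part of this axis and of the replicate number in the PUP3, PRE5, PRE10 and RPN11 differences was not tested.

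**Figure D4:**
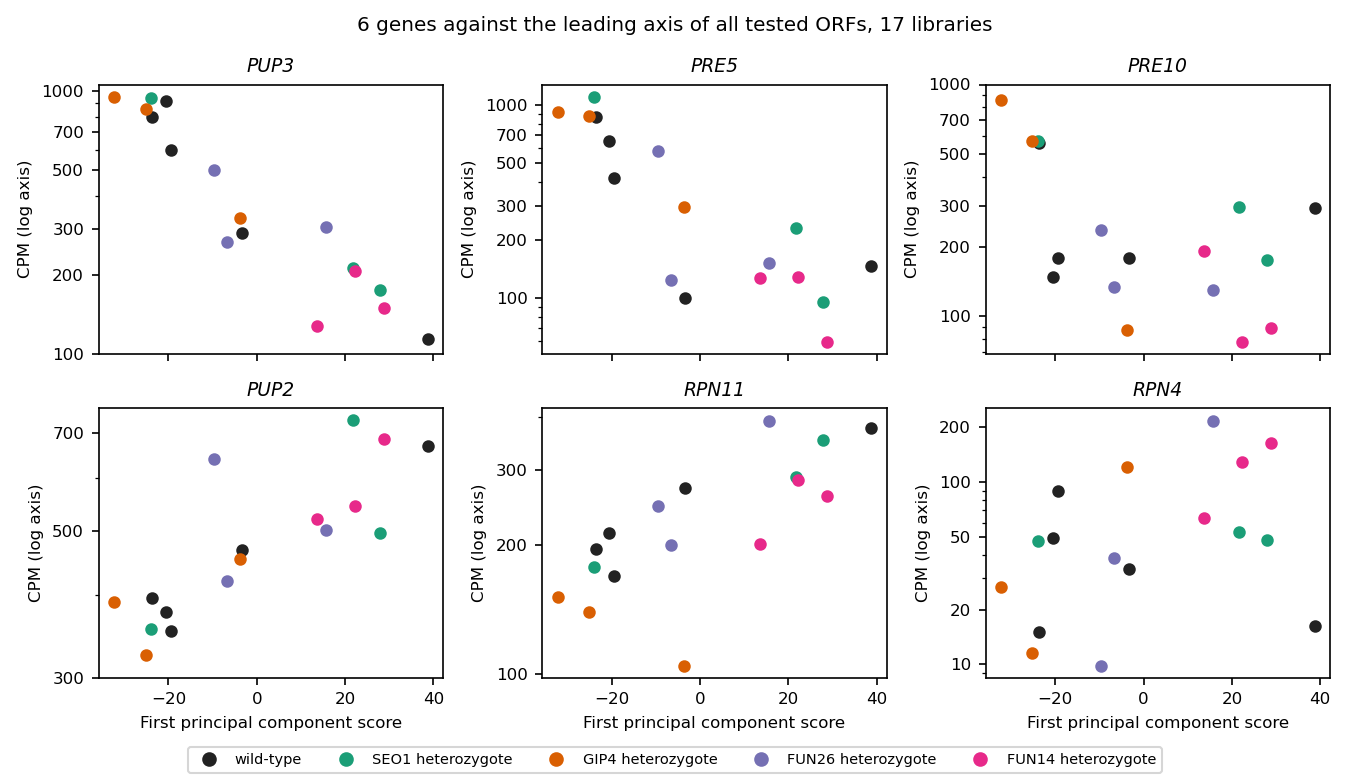
CPM on a log axis against the first principal component score of all tested ORFs, for 6 genes in 17 libraries coloured by group. PUP3 and PRE5 fall along the axis and PUP2 and RPN11 rise along it, while libraries of wild-type and SEO1 lie at both ends.

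Base composition moved with the axis as well. Over 2602 ORFs with R64 sequence, 91.1% of those tested, Spearman's rho between the GC share of the last 200 bases and r with the axis was −0.36, and over the 31 proteasome genes it was −0.21. The counted windows of PUP3 and PUP2, the genes with the lowest and highest r with the axis, are printed in full. They are the sequence behind the values above. GC made up 46% of the PUP3 window, 42.5% of the PRE5 window and 34.5% of the PUP2 window, beside a median of 41.5% over those ORFs:
PUP3 (YER094C), chrV:348729-348928, minus strand: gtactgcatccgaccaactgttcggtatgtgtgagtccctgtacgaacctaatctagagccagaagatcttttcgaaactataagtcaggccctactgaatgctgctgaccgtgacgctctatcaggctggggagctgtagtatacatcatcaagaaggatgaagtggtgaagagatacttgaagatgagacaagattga
PUP2 (YGR253C), chrVII:998358-998557, minus strand: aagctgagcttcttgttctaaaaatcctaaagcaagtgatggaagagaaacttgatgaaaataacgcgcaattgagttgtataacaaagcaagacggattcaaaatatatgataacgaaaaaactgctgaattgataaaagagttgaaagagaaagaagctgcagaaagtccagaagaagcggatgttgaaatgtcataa

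RPN10 and RPN8, with the highest and the lowest GC share of these windows (50% and 31.5%), had r of 0.51 and 0.49. Single genes thus did not all follow this relation. Its part in the results was not tested.

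Of the 18 genes of the 19S particle, 9 peaked in 1 shallow library, and the rest peaked in other libraries. FUN26 replicate 3, with the lowest total of 52293.5, held the highest value of 11 of the 33 genes, against 12.7% of tested ORFs. They were PRE3, RPN4 and 9 of the 18 genes of the 19S particle: RPT1, RPT2, RPT4, RPT5, RPT6, RPN3, RPN7, RPN11 and RPN12. RPT4 reached 761 CPM there and at most 343 elsewhere, RPN3 304 and at most 110.1, and RPT5 283 and at most 155. RPT2 and RPN11, at 413 and 391, barely passed their next libraries at 403 and 376. The median log2 fold change of the tested proteasome genes in the FUN26 heterozygote against wild-type was 0.16, and −0.011 without replicate 3. It was 0.33 without FUN26 replicate 2 and 0.32 without wild-type replicate 3.

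Subcomplex sums showed where the libraries of each group lay. Core genes summed to 5021, 3463, 3494, 4313 and 4252 CPM in wild-type, 5649, 3405 and 4083 in SEO1, 5455, 4955 and 3462 in GIP4, 4564, 3475 and 3599 in FUN26 and 3546, 3324 and 3559 in FUN14. The FUN14 sums were tight, with replicate 2 just under the lowest wild-type sum and the others near it. PRE5, PUP3 and PRE10, picked out after their values were seen, made up most of the spread: without them the core sum ran from 2536 to 3342 CPM over the 17 libraries, and with them from 3324 to 5649.

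Base sums lay between 2612 and 3545 CPM in wild-type and between 2691 and 4327 in the heterozygotes, with the highest value in FUN26 replicate 3. Lid genes summed to 812, 1364, 1083, 766 and 788 CPM in wild-type, 1067, 1279 and 1610.4 in SEO1, 888, 627 and 1035 in GIP4, 1405, 926 and 1837 in FUN26 and 1009, 1081 and 1087 in FUN14. Mean lid sums were 963 ± 259 CPM in wild-type (SD, n = 5), 1319 ± 274 in SEO1, 850.1 ± 206 in GIP4, 1389 ± 456 in FUN26 and 1059 ± 43.5 in FUN14 (n = 3 each). The SEO1 and FUN26 means thus lay above the wild-type mean and the GIP4 mean below it, and libraries of each group overlapped wild-type. The log2 difference of sums, all heterozygotes minus wild-type, averages over these opposite values and was −0.02 for the core, 0.04 for the base and 0.25 for the lid, beside SDs of single libraries within groups of 0.26, 0.20 and 0.35. These sums were not tested.

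The ratio of core to base sums ran from 0.977 to 1.71 in wild-type and from 0.832 (FUN26 replicate 3) to 1.94 (GIP4 replicate 1) in the heterozygotes. Of the subcomplexes the lid had the highest median correlation between its genes. Median pairwise r over the 17 libraries was 0.40 for 28 lid pairs, with none below 0.01. It was −0.03 for 45 base pairs, 0.22 for 80 pairs of a base and a lid gene, −0.06 for 91 core pairs and −0.01 for all pairs of tested ORFs. These correlations describe 17 libraries that share depth and the leading axis, and lid genes had low counts.

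**Figure D5:**
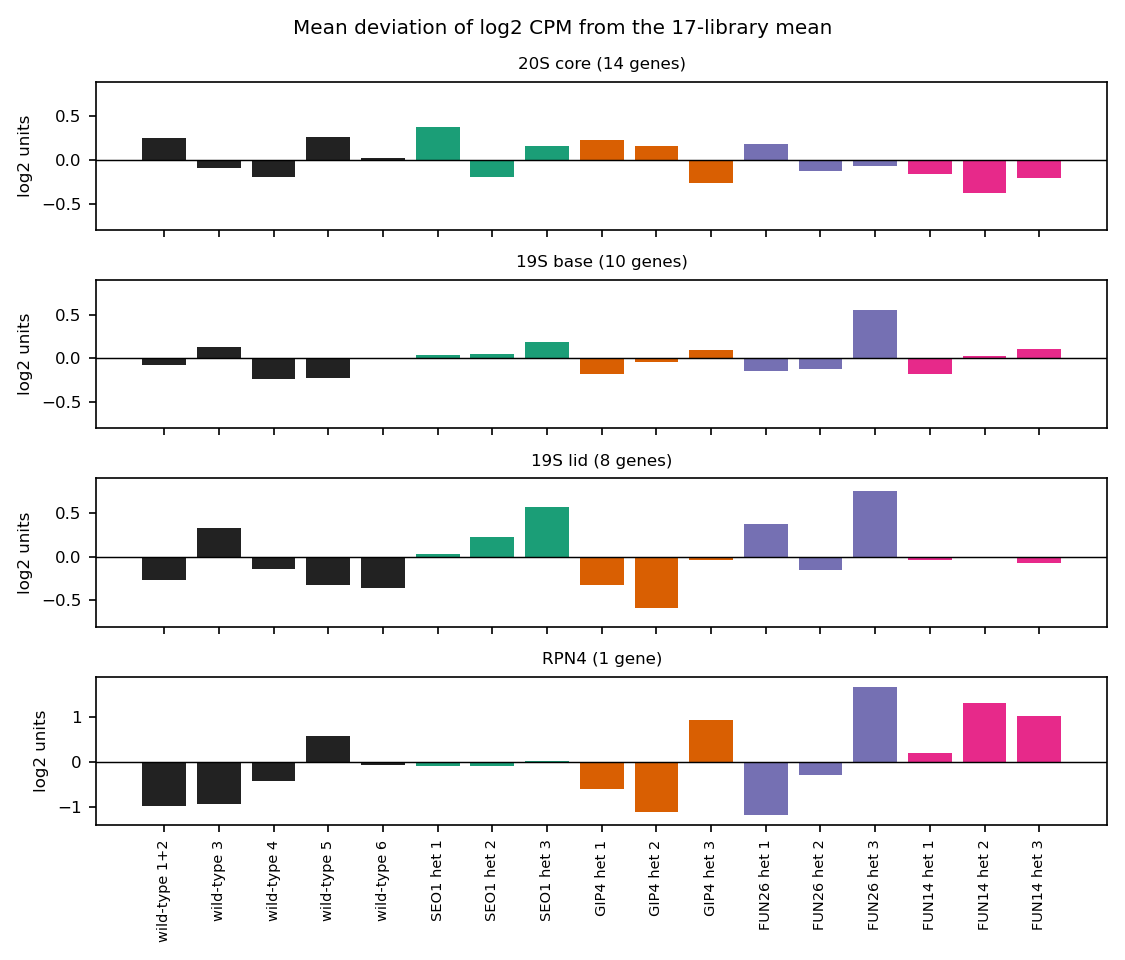
Mean deviation of log2 CPM from the 17-library mean for the 14 core, 10 base and 8 lid genes with equal weight, and for RPN4, in each library coloured by group. The lid bars are highest in FUN26 replicate 3 and SEO1 replicate 3 and lowest in GIP4 replicate 2; the RPN4 panel has a wider vertical scale.

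The last lists were genes that assemble the proteasome or feed it. None of the 11 tested of 16 assembly and associated factors, and none of the 15 tested of 24 ubiquitin pathway genes, passed the adjusted threshold in any of the 10 comparisons. Of all tested ORFs, 0% to 0.385% passed in these comparisons. At an unadjusted p under 0.05 in the mean of the heterozygotes against wild-type there were 0 and 1 of them, against 6.48% of all ORFs. Their smallest p belonged to DOA1, a cofactor of Cdc48, with a log2 fold change of 1.22 ± 0.47 (edgeR's adjusted p = 0.624). DOA1 stood at 40.1, 32.7, 44.4, 19.9 and 32.8 CPM in wild-type, 59.3, 128 and 76.0 in the SEO1 heterozygote, 17.8, 34.9 and 104 in the GIP4 heterozygote, 39.4, 76.4 and 174 in the FUN26 heterozygote and 84.9, 119 and 168 in the FUN14 heterozygote. DOA1 was higher than in any wild-type library in 9 of 12 heterozygote libraries. It was picked for its small p, and the share of all tested ORFs with this pattern was not computed. Among assembly factors NAS6, a chaperone of RPT3, had the smallest p, with −0.80 ± 0.47 (adjusted p = 0.729). NAS6 stood at 762, 32.7, 622, 766 and 886 CPM in wild-type, 593, 16.0 and 137 in the SEO1 heterozygote, 710.2, 639 and 609 in the GIP4 heterozygote, 685, 726 and 369.7 in the FUN26 heterozygote and 255, 29.8 and 168 in the FUN14 heterozygote. NAS6 was low in wild-type replicate 3, SEO1 replicates 2 and 3 and the FUN14 heterozygote, libraries whose scores on the leading axis were all positive.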

How the data were processed

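The values are estimated counts that the authors deposited in a single table, with 6606 ORFs and 18 libraries. Its name gives the last 200 bases of each ORF, 93.0% of values are whole, 6.98% are other multiples of 0.5, and none exceeds 201. Bowtie 0.12.5 is among the tools in the submitters' processing notes. No source used here states the build, whether strand was used, or how reads matching several places were handled. Only 5 of the 33 genes have the same coordinates in the table and in R64, so coordinates printed here are those of R64 and serve the sequences. No window of the 33 genes overlaps another ORF.

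Wild-type replicates 1 and 2 gave a chi-square of 0.970 per ORF across 2513 ORFs with a mean count of 8 to 120 (p = 0.858), and the 14 other wild-type pairs 2.07 to 9.84. Their counts were averaged. Counts were rounded and fitted in edgeR 4.0.16 with TMM factors, filterByExpr with a minimum count of 10, and 1 mean per group over 17 libraries. Adjustment was by Benjamini-Hochberg over 2856 ORFs, called under 0.05. The SE beside a log2 fold change was derived as its absolute value divided by the square root of the quasi-likelihood F. CPM values are per 1e+06 of the scaled library size, and log2 CPM used a prior count of 2. DESeq2 1.42.0, other scalings, no filter, a correction for the ceiling, a replicate block and leaving out each of 18 libraries were alternatives. The fit was tested on simulated data.

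The 33 genes, the other lists and the alternatives were chosen with earlier results of these data known. Genes with values in every library are RPN4, the 2 with the smallest p in each comparison, the highest and lowest of core, base and lid, and the smallest p of each pathway list; PUP2 and RPN5 were added after their values were seen. Motifs were searched as exact letters on both strands. Intervals cover counting error only.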

Additional observations from a re-analysis of the deposited data

Results flagged for a closer look

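Wild-type replicate 3 stood far above the other wild-type libraries for 3 genes. PUP1 was at 310.4 CPM there and at 144 to 178 in the others, RPT4 at 327 against 150.4 to 164, and RPN2 at 294 against 119 to 149.97. Each gap exceeded 0.71 of the range of the 5 libraries, the 95% critical value of Dixon's test. Chance alone passes this value in about 1 in 20 groups, and 36 groups of values were examined.

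For 3 further genes every library of 1 heterozygote lay above the wild-type mean and every library of another lay below it. PUP2 averaged 583 CPM in the FUN14 heterozygote and 389 in the GIP4 heterozygote, beside 453 in wild-type. RPT1 averaged 157 CPM in the FUN26 heterozygote and 69.1 in the GIP4 heterozygote, beside 89.2 in wild-type. RPN13 averaged 347 CPM in the SEO1 heterozygote and 265 in the FUN14 heterozygote, beside 303 in wild-type. This pattern held for 9.09% of the 33 genes and 15.3% of all tested ORFs. By edgeR's F test across the heterozygotes the adjusted p was 0.739 for PUP2, 0.653 for RPT1 and 0.901 for RPN13.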

How the results depend on the processing

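Of 250 counts of called proteasome genes under the alternatives, 245 equalled the main 0 and 5 did not. Leaving out 1 library gave 0 to 1 called genes for FUN14 against wild-type, 0 to 4 for GIP4 against the other heterozygotes and 0 to 2 for the F test, with the higher count without wild-type replicate 3 in the first and without SEO1 replicate 1 in the others; 6.24%, 12.6% and 7.02% of all ORFs were called there. With a replicate block over libraries numbered 1 to 3, FUN14 against wild-type had 2 called genes (PRE5 and PRE10), beside 5.22% of all ORFs. GIP4 against the other heterozygotes had 1 (PRE5), beside 3.43% of all ORFs. The same libraries without the block had 0. Both fits kept wild-type replicates 1 and 2 as separate libraries, although the pair was otherwise taken as 1 sample. Deviations of same-numbered libraries were also taken with wild-type replicates 1 and 2 kept separate. Their r between different groups ran from −0.49 to 0.57 over 30 pairs, and 20 exceeded 0.1. Among wild-type, GIP4 and FUN26 every pair did, and there the block changed no call of a proteasome gene against wild-type; for the other groups the numbers were not taken to pair the samples. The median log2 fold change ranged from 0.16 to 0.39 for SEO1 and from −0.011 to 0.33 for FUN26 against wild-type when 1 library was left out. The other 221 of 225 medians and all 84 sums moved by less than the pooled SD of single libraries within groups. That limit is wide for a difference of group means. With 1 library left out, the log2 difference of heterozygotes minus wild-type ran from 0.18 to 0.40 for the lid sum. For RPN4 it ran from 0.43 to 1.11. Of 438 values for the 2 genes with the smallest p in each comparison with a fold change, 434 kept their side of the threshold, none changed direction, and 4 passed it: PUP3 in FUN14 (−1.97) without wild-type replicate 3, PRE5 in FUN14 (−2.46) with the block, and PRE10 (1.57) and RPN11 (−1.08) in GIP4 without SEO1 replicate 1. The cause was not tested. With totals of 52293.5 to 132618 counts, low genes such as RPN4, RPN3 and RPT6 rest on few counts.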
